A study of Mus musculus with 2 samples.

Results

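The regions described here are 2831 of the 28718 peaks called with an antibody against GFP in SYAT mouse embryonic stem cells (mESCs). Each overlapped a peak called with an antibody against SRCAP by at least 1 bp, had its midpoint inside a protein-coding gene but in no annotated exon, lay more than 2500 bp from the transcription start site (TSS) of every annotated transcript, and had less than 50% of its bases soft-masked as repeats (GENCODE vM21 on GRCm38). SYAT cells derive from the mESC line CGR8, carry YPet, a yellow relative of GFP, and an auxin-inducible degron at the 3' end of both copies of Srcap, and express the receptor OsTir1. The GFP antibody was therefore used against the tag and the SRCAP antibody against the protein itself. CUT&RUN, in which antibody-bound chromatin is cut out by a tethered nuclease, was done once per antibody, on 100000 cells fixed in 0.1% formaldehyde for 5 min. SYAT cells were kept in auxinole, which blocks basal degradation, as the control condition, at a dose for which the labels and the study's methods give different units, and the labels give no treatment for the individual libraries, and no untagged cells or control antibody were analysed here. The deposited lists hold positions and scores but no reads, so depth is unknown.

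SRCAP is the ATPase of the complex that exchanges H2A for the histone variant H2A.Z, which is best known at nucleosomes next to promoters and is also found at enhancers. Introns of mammalian genes hold many enhancers and insulator sites far from the start of the gene. Enhancers of mESCs are commonly bound by the pluripotency factors OCT4 and SOX2, and insulator sites by the zinc finger protein CTCF.

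A SRCAP peak lay over 16138 of the 28718 GFP peaks, and 7210 of those had their midpoint in a protein-coding gene. Outside exons 5028 were left, 3226 of them were more than 2500 bp from every TSS, and the limit on soft-masked sequence removed another 395. The members made up 9.86% of all GFP peaks and covered 1159 kb. Before overlap was asked for, 5755 GFP peaks met the other criteria, and 49.2% of them were shared (95% Wilson interval 47.9 to 50.5), against 56.2% of the whole GFP list. The share of intronic peaks seen by both antibodies was thus below, not above, that of the list as a whole. An intron of a protein-coding transcript held 2764 members, in 1963 host genes, 73 members lay in introns of more than 1 gene, and 67 lay inside the bounds of a protein-coding gene but in no intron of its coding transcripts.

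Sequences from the strongest members that hold each motif show what was counted below. All are given 5' to 3' on the plus strand of GRCm38, read from the RefSeq assembly, and capitals mark the motif. For CTCF, and for the OCT4-SOX2 and NFY sites that follow, members beyond the strongest were chosen after their values were seen. The 3 strongest with a CTCF site lay in introns of Ank1, an ankyrin of the membrane skeleton, Arid4a, a chromatin regulator, and Gabbr2, a subunit of the GABA-B receptor.
Ank1 (CTCF, chr8:23028409-23028489, GFP score 163, SRCAP score 169): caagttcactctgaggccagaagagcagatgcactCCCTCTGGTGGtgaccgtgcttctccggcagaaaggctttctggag
Arid4a (CTCF, chr12:71073511-71073591, GFP score 166, SRCAP score 139): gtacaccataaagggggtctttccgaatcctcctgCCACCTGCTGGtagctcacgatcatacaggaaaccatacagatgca
Gabbr2 (CTCF, chr4:46665666-46665746, GFP score 119, SRCAP score 149): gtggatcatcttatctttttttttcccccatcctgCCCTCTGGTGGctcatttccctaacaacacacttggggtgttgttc
The composite OCT4-SOX2 site, at which both factors bind side by side, was held by few members, and the strongest lay in Ptprn2, a receptor-type phosphatase of secretory granules, in Cdkal1, a tRNA-modifying enzyme, and in Fam129a.
Ptprn2 (OCT4-SOX2, chr12:117235317-117235401, GFP score 132, SRCAP score 145): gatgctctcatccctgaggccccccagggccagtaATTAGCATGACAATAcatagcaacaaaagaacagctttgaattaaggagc
Cdkal1 (OCT4-SOX2, chr13:29371041-29371125, GFP score 158, SRCAP score 130): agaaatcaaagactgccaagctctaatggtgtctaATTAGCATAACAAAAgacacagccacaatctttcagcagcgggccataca
Fam129a (OCT4-SOX2, chr1:151712885-151712969, GFP score 117, SRCAP score 108): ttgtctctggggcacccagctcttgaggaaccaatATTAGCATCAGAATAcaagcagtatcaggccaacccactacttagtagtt
The octamer bound by POU factors is shown for the strongest member that holds it, in 4930467E23Rik, 81.9% of whose words of 31 bases occur more than once in the genome, and for the next, in Stox2, a winged-helix factor.
4930467E23Rik (OCT, chr8:19752075-19752152, GFP score 164, SRCAP score 373): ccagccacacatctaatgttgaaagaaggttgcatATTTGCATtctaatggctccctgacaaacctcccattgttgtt
Stox2 (OCT, chr8:47334493-47334570, GFP score 160, SRCAP score 130): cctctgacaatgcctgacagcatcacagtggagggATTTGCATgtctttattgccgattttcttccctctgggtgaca
Sites better known from promoters were found as well, among them the CCAAT box bound by NFY, shown for Dlgap2 and Gm17655, the ETS site of Dctn6, a dynactin subunit, and the NRF1 site of Usp6nl.
Dlgap2 (NFY, chr8:14340242-14340319, GFP score 199, SRCAP score 243): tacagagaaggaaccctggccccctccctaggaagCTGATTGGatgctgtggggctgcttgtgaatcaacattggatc
Gm17655 (NFY, chr5:110058065-110058142, GFP score 213, SRCAP score 184): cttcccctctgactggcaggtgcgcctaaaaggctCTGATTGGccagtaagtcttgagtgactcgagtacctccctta
Dctn6 (ETS, chr8:34101373-34101449, GFP score 152, SRCAP score 155): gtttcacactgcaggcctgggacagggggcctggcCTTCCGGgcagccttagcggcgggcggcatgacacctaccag
Usp6nl (NRF1, chr2:6374421-6374499, GFP score 49, SRCAP score 57): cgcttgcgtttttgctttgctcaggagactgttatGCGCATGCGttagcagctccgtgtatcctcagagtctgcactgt

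The members were of moderate score. The score is a whole number per peak that the authors deposited, with a minimum of 13 in both lists, and its meaning was not stated. The members had a median GFP score of 55 (interquartile range 40 to 83), and the strongest SRCAP peak over each had a median of 53 (36 to 82). Both medians lay above the list medians of 47, and 64.4% of members reached that value in the GFP list. Shared intergenic peaks chosen by the same distance and masking limits (n = 3468) had a median GFP score of 57 (95% order-statistic interval 55 to 59, against 54 to 56 for the members), and shared promoter peaks (n = 5881, midpoint between 1000 bp upstream and 500 bp downstream of a TSS) had 64 (63 to 66). The members thus stood below shared promoter peaks and next to shared intergenic peaks. Intronic peaks found by 1 antibody only were weaker, with a median of 34 for the 2924 of the GFP list and 33 for the 2737 of the SRCAP list. Overlap favours strong and wide peaks, so that difference and the place above the list medians are partly fixed by the choice of members.

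Overlap was asked for, so the distances between the peaks of both antibodies are limited by the choice of members and are given as a description. A single SRCAP peak overlapped 2812 members and 2 peaks overlapped the other 19. Midpoints were a median of 56 bp apart, and 73.0% of pairs were within 100 bp. The median member was 355 bp wide against 289 bp for its SRCAP peak, and 36.9% of the SRCAP peaks lay wholly inside the GFP peak. Across members the scores of both lists had a Spearman correlation of 0.48, against 0.48 across shared intergenic and 0.55 across shared promoter peaks; these points share their libraries and are not replicates. At the edges of the rule, the Dennd2c and Ass1 members lay 2501 bp from a TSS, while shared intronic peaks of Grin2c at 2499 bp and Piezo2 at 2500 bp were left out. Members in Ncor1 and Prkag1 had 49.9% and 49.8% of their bases masked, and peaks in Fbxl17 and Synj2, at 50.0%, were left out.

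**Figure D1:**
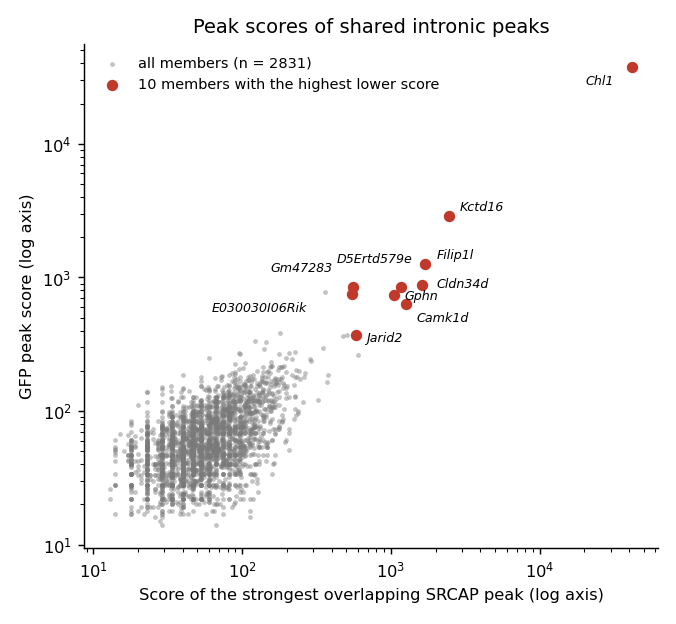
GFP peak score against the score of the strongest overlapping SRCAP peak for each of the 2831 members, both on log axes and without units, with 1 point per member and the 10 members of the highest lower score in red. Most points form a single cloud below 200 in both lists, and the Chl1 peak stands apart at 37664 and 42009.

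A few members stood far above the rest, and most of them held many words of 31 bases that occur more than once in the genome. Only 46 members had a GFP score of 200 or more and 10 had 500 or more. Ranked by the lower of both scores, the strongest lay in an intron of Chl1, a neural cell adhesion molecule (GFP 37664, SRCAP 42009, chr6:103649059-103649295), followed by Kctd16, an auxiliary subunit of GABA-B receptors (2873 and 2470), and Filip1l (1257 and 1705). Next came Cldn34d, a claudin (886 and 1611), D5Ertd579e (850 and 1177), Gphn, the scaffold of inhibitory synapses (740 and 1048), and Camk1d, a calmodulin-dependent kinase (630 and 1265). Gm47283 on the Y chromosome (853 and 559), E030030I06Rik (757 and 548) and Jarid2, a cofactor of Polycomb repressive complex PRC2 (374 and 579), closed the list. All words of 31 bases in the 100 bp on either side of each midpoint were counted on the assembled chromosomes. A further copy inside the same window, as in a tandem repeat, counted like a copy elsewhere. In 8 of these 10 members at least 50% of the words occurred more than once, the exceptions being Kctd16 with 0% and E030030I06Rik with 35.7%. Among all members 39 of 2831 did so (1.38%, 1.01 to 1.88), close to the 1.28% of every 100th eligible intronic window. The share was 9.38% of the 224 members whose lower score was 100 or more and 52.4% of the 21 at 200 or more. Of the 39 members, 16 lay on chromosome 4 and 6 on chromosome 8. A read made only of such words may match more than 1 place or still only a single place, and reads were not examined here. The study's methods state for ChIP-seq and CUT&Tag that only reads with a single place were kept, without stating it for CUT&RUN.

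The sequences of 3 of these members show the kinds of sequence involved. Capitals here mark each CG dinucleotide. The Filip1l and Jarid2 windows are rich in CG, with observed-to-expected ratios of 0.95 and 1.02, and the sequences around their midpoints shared an identical run of 79 bases although the genes lie on chromosomes 16 and 13. D5Ertd579e is a tandem repeat: shifted by 33 bases, its window matched itself at 97.0% of positions, and it holds no CG.
Filip1l (chr16:57391400-57391600, GC 69.7%): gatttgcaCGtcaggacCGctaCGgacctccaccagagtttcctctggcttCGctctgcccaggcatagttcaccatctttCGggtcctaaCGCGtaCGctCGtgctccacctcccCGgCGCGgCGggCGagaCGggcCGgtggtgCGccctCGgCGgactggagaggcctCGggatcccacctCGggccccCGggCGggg
Jarid2 (chr13:44869772-44869972, GC 54.2%): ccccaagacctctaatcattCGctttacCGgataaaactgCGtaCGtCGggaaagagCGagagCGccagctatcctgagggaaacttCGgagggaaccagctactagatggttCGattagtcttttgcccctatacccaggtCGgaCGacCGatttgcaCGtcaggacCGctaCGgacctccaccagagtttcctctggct
D5Ertd579e (chr5:36630525-36630725, GC 34.8%): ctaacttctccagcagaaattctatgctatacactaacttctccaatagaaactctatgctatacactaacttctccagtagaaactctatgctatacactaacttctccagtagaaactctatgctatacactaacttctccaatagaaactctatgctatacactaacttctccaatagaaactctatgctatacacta

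Members were denser near the start of genes than far from it, although all lay beyond 2500 bp of any TSS. As reference, the eligible intronic sequence was sampled every 500 bp under the same limits, which gave 1228642 windows or 614 Mb, and the members came to 4.61 per Mb of it. Counted by distance from the start of the host transcript, the density was 5.54 per Mb at 2.5 to 5 kb (95% exact Poisson interval 4.58 to 6.65), 7.47 at 5 to 10 kb (6.63 to 8.38), 6.57 at 10 to 20 kb (5.95 to 7.25), 5.68 at 20 to 50 kb (5.26 to 6.13), 4.73 at 50 to 100 kb (4.33 to 5.17) and 3.05 beyond 100 kb (2.83 to 3.27). From 5 kb outwards each step was lower than the one before, and the intervals of 5 to 10 kb and of every bin beyond 20 kb did not overlap. The median distance was 44100 bp, against 74886 bp for eligible windows. Neighbouring peaks are not independent, so these intervals, which cover counting error only, are too narrow.

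First introns held 799 of 2764 members, 28.9% (27.2 to 30.6), against 25.0% of eligible windows. Intronic peaks of the GFP antibody alone had 31.8% there (30.1 to 33.5) and those of the SRCAP antibody alone 25.5% (23.9 to 27.2). The introns with members had a median length of 22770 bp, shorter than the 33599 bp around eligible windows, and members lay a median of 4911 bp from the nearest exon of the host transcript, against 6474 bp. Start sites of the RefSeq annotation were near few of them: 90 members (3.18%, 2.59 to 3.89) were within 1 kb of a RefSeq transcript start, compared with 1.32% of eligible windows.

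**Figure D2:**
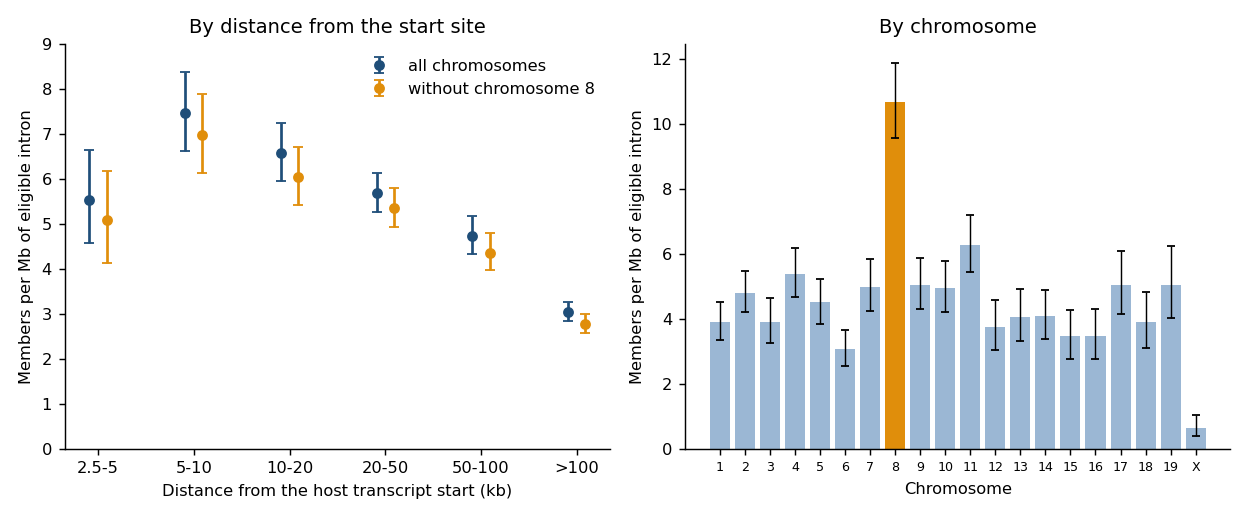
Members per Mb of eligible intron, with 95% exact Poisson intervals as bars, by distance from the start of the host transcript in kb (left, all chromosomes in blue and without chromosome 8 in orange) and by chromosome (right, chromosome 8 in orange). Density was highest at 5 to 10 kb, at 7.47 per Mb, and chromosome 8 reached 10.7 per Mb; chromosome Y, with 1 member, is not drawn.

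Chromosome 8 held 344 members, 10.7 per Mb of its eligible intron (9.58 to 11.9), while the other 18 autosomes ranged from 3.07 on chromosome 6 to 6.28 on chromosome 11. The X chromosome held 17, or 0.65 per Mb (0.38 to 1.04). Chromosome 8 had 5.24% of eligible windows and 12.2% of members (11.0 to 13.4), and likewise 10.7% of shared intergenic peaks, 8.07% of the intronic peaks of the GFP antibody alone and 13.4% of those of the SRCAP antibody alone. Its share was thus above that of eligible windows in each of these sets, and 7.72% of shared promoter peaks lay there as well. The eligible windows are intronic, so they are a like reference for the intronic sets only, and none was measured for intergenic or promoter peaks. The copy number of the chromosomes was not measured, and its part in these counts was not tested. The fall with distance was also seen without chromosome 8, from 6.97 per Mb at 5 to 10 kb to 2.77 beyond 100 kb.

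Most host genes, 1481 of 1963 (75.4%), held 1 member, 323 held 2 and 159 held 3 or more. Among the 8 genes with the most members, 4 lay on chromosome 8. The highest count, 31, belonged to Gm20388, a gene model that spans other genes on chromosome 8 (119910841 to 124345722). Its 31 members lay in 1 intron, and each was given to it because no shorter protein-coding gene surrounded it. Without them chromosome 8 still held 10.2 members per Mb. Gse1, a subunit of a histone deacetylase complex, lies inside those bounds and held 15 members in 2 introns, with GFP scores of 16 to 194 and SRCAP scores of 27 to 154, at 55.1 per Mb (30.9 to 91.0). Stox2 held 8 members in a single intron (48.6 per Mb, 21.0 to 95.8), and Zfhx3, a large homeodomain factor, 9 in 5 introns (10.8 per Mb).

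Peak1, a cytoskeletal pseudokinase on chromosome 9, held 14 members at 90.6 per Mb (49.5 to 152), but these were not separate in both lists. A single SRCAP peak of 58359 bp (chr9:56260445-56318803, score 97) overlapped 10 of them, and those GFP peaks were 706 to 11502 bp wide with scores of 28 to 81. Outside this stretch no SRCAP peak over a member was wider than 1050 bp and no member wider than 1333 bp. The phosphodiesterase gene Pde4d held 8 members in 2 introns, at 8.0 per Mb. Dlgap1, Etl4, Magi2 and Msi2 held 7 each.

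Genes with promoter peaks of both antibodies held members at higher density. Such peaks were found at 726 of the 1963 host genes (37.0%, 34.9 to 39.1), against 4056 of the 13872 genes with eligible sequence but no member (29.2%, 28.5 to 30.0). Genes with both promoter peaks had 6.32 members per Mb (5.94 to 6.70), and genes without them 3.92 (3.73 to 4.11). The difference was there at each length of eligible intron: 8.57 against 7.15 per Mb under 10 kb, where the intervals overlapped, 8.08 against 6.17 at 10 to 50 kb, 6.67 against 4.35 at 50 to 200 kb and 4.26 against 2.13 above 200 kb.

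**Figure D3:**
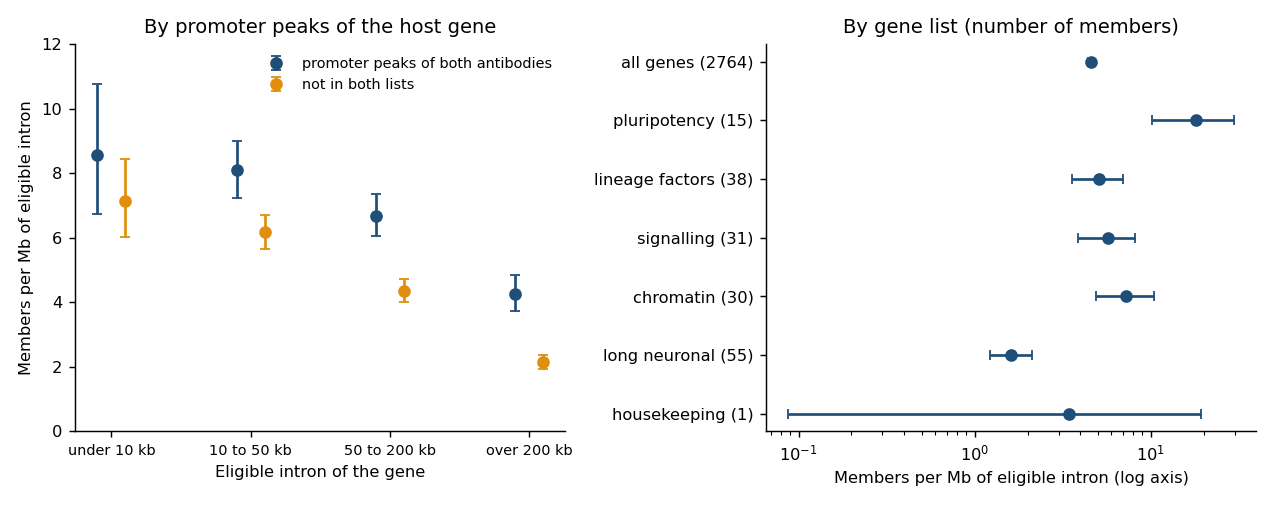
Members per Mb of eligible intron with 95% exact Poisson intervals, for genes with and without promoter peaks of both antibodies by length of eligible intron (left), and for each gene list on a log axis with its number of members in brackets (right). Genes with both promoter peaks were higher at each length, and the pluripotency list, at 18.1 per Mb with 15 members, was above the 4.59 of all genes.

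Among the gene lists, the pluripotency list had the highest density. Of 32 listed genes with eligible intron, 7 held 15 members in 0.83 Mb, which is 18.1 per Mb (10.1 to 29.9), while all genes had 4.59. The 7 genes were Jarid2, Tcf7l1 and Tfcp2l1 and, named after their values were seen, Etv5, Nr5a2, Lin28b and Lifr. The share of listed genes with a member, 21.9% (11.0 to 38.8), had an interval that held the 12.4% of all genes. Tcf7l1, a repressor of the Wnt pathway that limits pluripotency genes, held 4 members, the strongest in intron 3 (GFP 118, SRCAP 113, chr6:72677349-72678085). Tfcp2l1, a factor of naive pluripotency, held 2 in intron 2, the stronger at 82 and 99. The strongest of the list was the Jarid2 peak of repeated sequence described above, and without members of repeated sequence the list had 16.9 per Mb. The difference depended on which peaks were taken: among peaks at or above the list median in both lists it had 6.04 per Mb (1.96 to 14.1) against 2.14 for all members, and more than 10 kb from every TSS 10.2 (3.30 to 23.7) against 3.76, with intervals that held the density of all members.

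Of 11 genes that the study names as upregulated after SRCAP loss or as pluripotency factors, 7 had eligible intron. Only Meis1, a homeodomain cofactor of HOX proteins, held members, 2 in number. Both lay in intron 7. The stronger had a GFP score of 200 and a SRCAP score of 150 (chr11:18957574-18958188), and its centre is rich in CG, with a ratio of 0.62; the weaker had scores of 47 and 18. Meis1 had no promoter peak in both lists. The centre of the stronger peak, with each CG in capitals, is shown because it is the single strong member of a gene singled out by the study.
Meis1 (chr11:18957781-18957981, GC 50.7%): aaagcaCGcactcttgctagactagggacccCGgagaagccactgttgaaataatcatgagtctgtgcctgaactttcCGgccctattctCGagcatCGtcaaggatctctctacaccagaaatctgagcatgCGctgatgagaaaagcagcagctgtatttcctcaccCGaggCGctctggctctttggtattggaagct

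In density the other lists lay nearer to all genes, or below. By the share of genes with a member, 4 of them stood above the 12.4% of all genes. The lower ends of their intervals were 27.6% for lineage factors, 23.8% for signalling, 19.3% for chromatin and 35.2% for long neuronal genes. The housekeeping share, 4.17% (0.74 to 20.2), had an interval that held 12.4%. These shares were not adjusted for the length of eligible intron. Lineage transcription factors had 38 members in 20 of 50 genes (5.08 per Mb, 3.60 to 6.97), the strongest in Meis1, in Nfib, a nuclear factor I protein (140 and 103), and in Pbx3, a partner of HOX proteins (103 and 142). Signalling genes had 31 members in 19 of 54 (5.73 per Mb, 3.89 to 8.13), led by Ltbp1, which binds latent TGF-beta (168 and 157), the BMP receptor Bmpr1b (115 and 160) and Tcf7l1. Chromatin regulators had 30 members in 19 of 66 (7.30 per Mb, 4.93 to 10.4), an interval above the 4.59 of all genes. The strongest were the Jarid2 peak of repeated sequence, the H3K4 demethylase Kdm5b (131 and 92) and the remodeler Ino80 (107 and 86). Outside chromosome 8 the list had 21 members, at 5.45 per Mb, against 4.25 for all genes there. Long neuronal genes held 55 members in 20 of 40 genes but only 1.62 per Mb (1.22 to 2.11), below all genes, with the strongest in Lrp1b, a lipoprotein receptor (171 and 163), and another in Auts2 (151 and 97). Housekeeping genes had 1 member among 24, in Clta, clathrin light chain A (109 and 67), or 3.46 per Mb with an interval of 0.0876 to 19.3.

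In GC content the members stood out from the intron around them but not from shared intergenic peaks. The 100 bp on either side of the midpoint had a median GC content of 49.3% (49.3 to 49.8), against 45.3% in windows 1 kb to either side and 42.3% in eligible windows, and 74.6% of members (72.9 to 76.1) were above the mean of their own flanks. Shared intergenic peaks also had 49.3% and shared promoter peaks 56.2%. The observed-to-expected CpG ratio was 0.21 in members, 0.18 in flanks, 0.25 in shared intergenic and 0.61 in shared promoter peaks. Windows with at least 50% GC and a ratio of at least 0.6, as in CpG islands, made up 86 members (3.04%, 2.47 to 3.74), 0.88% of flanks, 5.51% of shared intergenic and 45.3% of shared promoter peaks. Among these 86 were the Filip1l, Gphn, Jarid2 and stronger Meis1 peaks, and 5 of the 86 were within 1 kb of a RefSeq start. The Filip1l, Gphn and Jarid2 windows were of repeated sequence, with 64.9%, 78.4% and 74.9% of their words found more than once in the genome. For these peaks the likeness to CpG islands is one of base composition only, and the origin of their sequence was not tested.

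Motifs were counted as exact matches on either strand within 100 bp of the midpoint. The letters searched were ATGCAAAT for OCT; CATTGTT for SOX; CCACACCC for KLF; CCCGCCCC for SP; CCGGAAG for ETS; GCGCATGCG for NRF1; CCAATNAG for NFY; TGANTCA for AP-1; GTTGCCATG for RFX; TCAAGGTCA for ESRRB; AAGATGGCG for YY1; ACATTCCA for TEAD; CACGTG for the E-box; GGACAGCGC for REST; TTCCNGGAA for STAT; and AGATAAG for GATA. The CTCF, OCT4-SOX2 and ZNF143 consensus sites use ambiguous letters and are given by name, and 3 of the 11 members with an OCT4-SOX2 site also held the octamer. A match is a string of letters and not a bound site. Of the 19 motifs searched, 11 were more frequent in members than in flanks by the 95% Newcombe interval of the difference, and none was less frequent. The flank windows were not held to the limits on masking, exons and TSS distance, which the eligible windows met. Against eligible windows 13 motifs were more frequent and none less frequent. None of the 19 was held by 66.5% of members.

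CTCF, the insulator protein, had the largest difference in percentage points among the 19. It was matched in 111 members (3.92%, 3.27 to 4.70), in 20 of 5662 flank windows (0.35%) and in 0.25% of eligible windows. The difference from flanks was 3.57 percentage points (2.89 to 4.36). Among intronic peaks the share was 2.53% with the GFP antibody alone and 7.27% with the SRCAP antibody alone, so the members lay between, 1.39 points above the former (0.48 to 2.32) and 3.35 points below the latter (2.15 to 4.57). Shared promoter peaks had 1.07%. Members with the motif had a median GFP score of 45 (40 to 53) against 55.5 (54 to 57) for the rest, while their SRCAP medians were 54 and 53, and 22.7% of them were in first introns (15.9 to 31.4). Within 200 bp of the midpoint the matches were spread evenly: 115 lay within 100 bp and 117 at 100 to 200 bp, after which they became rare. Per bp and 1000 members they came to 0.203 within 50 bp (0.154 to 0.262) and 0.0132 at 300 to 500 bp (0.0074 to 0.0218). Of 110 matches with a host strand, 42 pointed along the gene (38.2%, 29.6 to 47.5). No such share is given for flanks or eligible windows, so no preferred direction is read from it.

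The POU and SOX sites of pluripotency factors were also more frequent than in flanks. The OCT4-SOX2 site was matched in 11 members (0.39%, 0.22 to 0.69) and in 1 flank window, and its difference of 0.37 points (0.18 to 0.68) was 0.06 (-0.07 to 0.35) among members under 10% soft-masked. The OCT octamer was matched in 90 members (3.18%, 2.59 to 3.89) against 1.13% of flanks and 1.42% of eligible windows, and the SOX site in 140 (4.95%, 4.21 to 5.81) against 3.18% and 3.96%. The octamer share was 1.86% in intronic peaks of the SRCAP antibody alone, 1.32 points lower (0.49 to 2.15), and 2.43% with the GFP antibody alone, where the interval of the difference included 0 (-0.10 to 1.62). Members with the octamer had a median GFP score of 74 (59 to 87) against 54 (54 to 56) without it. No member held both the octamer and the CTCF site. With shares of 3.18% and 3.92%, few members would hold both if the sites were unrelated, so no exclusion is read from this. By the same measure as for CTCF, the octamer was more frequent near the midpoint than at 300 to 500 bp. It had 50 matches within 50 bp (0.175 per bp and 1000 members, 0.130 to 0.231) and 79 at 300 to 500 bp (0.0698, 0.0552 to 0.0869).

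The NFY, ETS, SP and NRF1 sites, known from promoters, were more frequent than in flanks but rarer than at promoters. The NFY site was matched in 100 members (3.53%, 2.91 to 4.28), 1.82% of flanks, 2.14% of eligible windows and 8.48% of shared promoter peaks. Of the 697 members whose lower score was 64 or more 6.31% held it (4.74 to 8.37), and of the 713 at 30 or less 2.24% (1.39 to 3.61). The ETS site was matched in 1.87% of members, 0.67% of flanks and 8.76% of shared promoter peaks, and the SP site in 1.77%, 0.97% and 12.1%. The SP difference from flanks, 0.79 points (0.28 to 1.39), was 0.19 (-0.29 to 0.75) in windows of 40 to 55% GC and 0.33 (-0.31 to 1.12) more than 10 kb from every TSS. KLF differed in that its 3.00% was 0.33 points above that of shared promoter peaks, with an interval that included 0 (-0.39 to 1.13). NRF1 was matched in 7 members, 0.23 points above flanks (0.08 to 0.49), and among scores at or above the list median the difference was 0.11 (-0.09 to 0.52). RFX was matched in 14, the strongest in Slc25a12, 0.30 points above flanks (0.05 to 0.64), a difference whose interval included 0 under most alternatives, as in windows of 40 to 55% GC (0.13, -0.13 to 0.48). AP-1 was matched in 7.49% of members and 5.51% of flanks, but its difference from eligible windows included 0 (-0.03 to 1.91), and its strongest member, in Gm21119 (366 and 476), was again of repeated sequence (100%).

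The remaining 8 motifs did not separate from flanks within 100 bp of the midpoint. They were those of ZNF143, ESRRB, YY1, TEAD, MYC and USF (the E-box), REST, STAT and GATA. In that order, and leaving out GATA, the strongest members that held them lay in Bcat2, Pigl, Ece2, Arhgef3, Gm20388, Slc26a3 and Prex2. The ESRRB site, which belongs to a factor of naive pluripotency, differed by 0.11 points from flanks (-0.22 to 0.51). With 200 bp on either side, YY1 and STAT separated, by 0.25 points (0.01 to 0.57) and 0.72 points (0.16 to 1.37). Against shared intergenic peaks, no motif of the 19 separated in either direction. The intervals of median GFP score, width and GC of both sets overlapped as well, while the CpG ratio (0.203 to 0.219 against 0.240 to 0.257) and the share of repeated sequence (1.38% against 4.44%, 3.80 to 5.18) were lower in the intronic peaks.

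**Figure D4:**
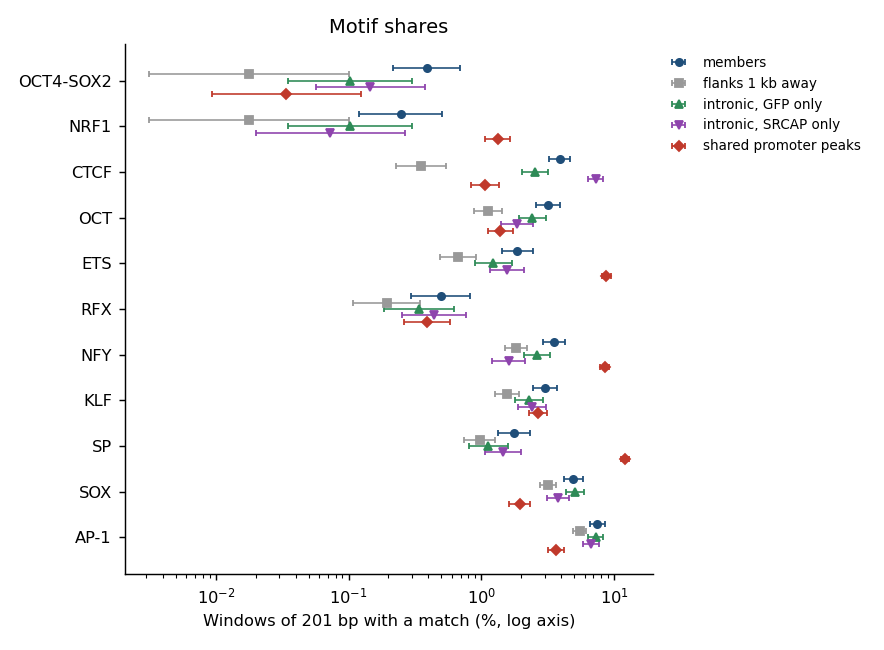
Share of windows, 100 bp to either side of the midpoint, with a match, in percent on a log axis, for the 11 motifs more frequent in members than in flanks, with 95% Wilson intervals as bars and 1 symbol per set of windows. Members (circles) lie right of flanks (squares) for each motif; for CTCF the SRCAP-only intronic peaks are highest, at 7.27%, and for SP, ETS, NFY and NRF1 the shared promoter peaks are.

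**Figure D5:**
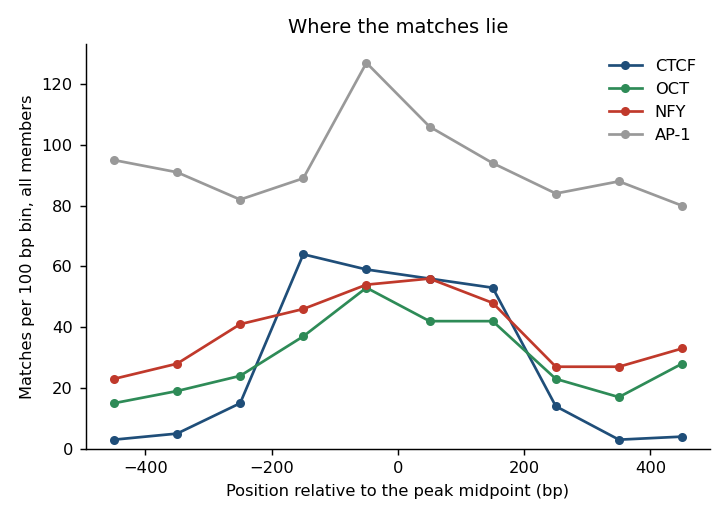
Number of motif matches per 100 bp bin over all 2831 members against distance from the peak midpoint in bp, for 4 motifs. CTCF holds 53 to 64 matches in each bin within 200 bp and 3 to 15 in each bin beyond, while AP-1 is present throughout.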

How the data were processed

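CUT&RUN peak lists of 2 libraries, 1 per antibody, were used. The score and the coordinates are those the authors deposited, 1 list per library. The submitters' processing notes name STAR, Picard and MACS2 and the builds mm10 and dm6, without versions. The study describes STAR mapping of reads with a single place and MACS2 calling against an input for ChIP-seq. Neither these settings nor a control are stated for the CUT&RUN lists in the sources used here. All peak ends lay within GRCm38. The 3 mitochondrial peaks of each list could not become members. The methods text names the SRCAP antibody for CUT&RUN, so the assay of the GFP library rests on its labels.

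Overlap was computed in Python 3.11.15 (numpy 2.4.6, pandas 2.3.3, scipy 1.17.1) and checked with bedtools 2.31.1. Host genes, introns and TSSs came from GENCODE vM21 and sequence from the GRCm38.p6 assembly of RefSeq. Where hosts overlapped, the shortest gene and its longest transcript were taken. Eligible windows met the masking limit over the 150 bp on either side of their centre, and GC, CpG and motifs were counted over 100 bp on either side. Shares have 95% Wilson, densities exact Poisson and medians order-statistic intervals. With 1 library per antibody no test was run, and regions are not replicates. The scripts were tested on simulated data. The members, gene lists and motifs were chosen with earlier results of these data known. Named were the 8 genes with most members, the 10 members with the highest lower score, the strongest per motif, and peaks at the limits. Also named were members in the 11 study genes described above and the 3 strongest per other list. Some genes that this rule names are not reported here. The words of 31 bases, the widest SRCAP peak, Gm20388 and RefSeq starts were looked at after seeing the data. In all, 10 alternatives were listed at the start and 4 were added; intervals cover counting error only.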

Additional observations from a re-analysis of the deposited data

How the results depend on the processing

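With a single library per antibody, no libraries could be paired and none could be omitted. Each member is paired with its own flank windows, a pairing used for GC content only. The Newcombe intervals of the motif differences treated members and flank windows as independent. The 11 main values were recomputed under 10 alternatives listed at the start and 4 chosen after seeing the data, where each applies; 87 of 117 such values stayed inside the interval of the reported value, or within 1.5 times for the number of members, and none of the motif differences that excluded 0 changed sign. The cause of the moves below was not tested except where fewer peaks enter by construction. With scores at or above the list median in both lists there were 1313 members, with a median GFP score of 80. Their density was 3.51 per Mb at 5 to 10 kb, 1.45 beyond 100 kb, 2.14 in all and 6.04 in pluripotency genes. Median GC was 48.8% and the CpG ratio 0.191. Both promoter peaks were found at 21.5% of host genes. No share of genes without a member is given for this setting, so the 29.2% above is no reference for this value. More than 10 kb from every TSS lay 1516 members, with 26.0% in first introns (22.5% of eligible windows), 2.78 per Mb beyond 100 kb, 3.76 per Mb in all and a GC of 48.8%; this limit leaves no bin of 5 to 10 kb. Under 10% soft-masked were 1607 members, with 9.34 per Mb at 5 to 10 kb, 4.14 beyond 100 kb, 6.14 in all, a CpG ratio of 0.233 and 36.3 per Mb in pluripotency genes. A reciprocal overlap of 50% gave a median GFP score of 57 and 5.61, 2.29 and 3.39 members per Mb at 5 to 10 kb, beyond 100 kb and in all. Without chromosome 8 the density was 2.77 beyond 100 kb and 4.27 in all. With the SRCAP list as anchor 4.92% of members held the CTCF motif, and in windows of 200 bp to either side of the midpoint 7.95% did, with a GC of 48.9%. A promoter window of 2500 bp to either side gave 46.2% of host genes. Of the 11 motifs above flanks, RFX was lost under 7 of the 8 alternatives listed at the start that bear on motifs, SP beyond 10 kb and at 40 to 55% GC, NRF1 at the higher scores and OCT4-SOX2 under 10% soft-masked, while YY1 and STAT were gained with 200 bp on either side; CTCF, OCT, SOX, KLF, ETS, NFY and AP-1 kept an interval above 0 under all of them.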
